A study of Mus musculus with 27 samples.

Results

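Collagens, the most abundant proteins of the extracellular matrix, were described here in the epididymal adipose tissue (EAT) of male C57BL/6J mice fed 3 diets. Every gene was taken whose symbol in the probe annotation of the array is Col, a number, a and a number, which gave 42 collagen genes among the 18193 genes with a probe set of their own. The mice arrived at 5 weeks of age, were acclimated for 1 week and were then fed for 18 weeks. Of the 27 mice, 9 received the control AIN93G diet. Another 9 received a Western diet rich in fat, sucrose and cholesterol, with 39.9% of energy from fat and 34.0% from sucrose, and the last 9 received that Western diet with 0.05% quercetin, a flavonol of vegetables and tea, mixed in. RNA of each mouse was hybridized to its own Affymetrix array, which reports a signal that rises with the abundance of an mRNA. Signals are given on the log2 scale after quantile normalization, so that a difference of 1 is a doubling, and a gene was called changed at a limma adjusted p under 0.05. The mice were housed 3 to a cage and the labels do not say which mice shared one, so mice were treated as independent.

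A collagen molecule is a helix wound from chains that different genes may encode, and the chains of a molecule must be made together. Fibrillar collagens (types I, III and V are the main ones in adipose tissue) form the ropes of the interstitial matrix, and FACIT collagens such as types XII, XIV and XVI sit on their surface. Type VI collagen builds beaded filaments close to the cell, and type IV collagen forms the sheet-like network of the basement membrane that surrounds each adipocyte and each vessel. Growing adipocytes press against this matrix, and in obese adipose tissue collagen is laid down around adipocytes and in scars.

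The tissue was checked against marker genes first. The mean log2 signal of 8 measured adipocyte markers was between 12.06 and 12.56 on every array. One protocol text of the labels names liver as the extracted tissue whereas the title, source and tissue label of every sample name EAT, and the mean of 7 liver markers ran from 3.61 to 11.45 over the arrays. The 9 arrays whose liver mean stood more than 1.5 above the median array were 2 control, 4 Western and 3 quercetin arrays. Smooth muscle markers were high on control replicates 2 and 4 (11.08 and 11.61), testis markers on control replicate 6 (12.65), and lymph node B cell markers on control replicate 3 (6.46). Testis markers stood more than 1.5 above the median array on 9 arrays in all, and mesothelial markers on 4, all of them controls (replicates 1, 2, 4 and 5). Results without the arrays high in liver markers, and without those high in testis, lymph node or smooth muscle markers, are given further on. The arrays high in mesothelial markers were not left out as a set.

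Some collagen genes lie side by side in the genome, among them Col3a1 and Col5a2 on chromosome 1, and the start regions of chains that the results turn on are shown here. The windows are from RefSeq on build GRCm38.p6, which held start regions for 33 of the 42 genes and not for 9, Col1a1, Col5a2 and Col12a1 among them. The sequences run 5′ to 3′ in lower case, with a CCAAT box (CCAAT or ATTGG), a GC box (GGGCGG or CCGCCC) or a TATAAA or TTTATA stretch in capitals. The first pair shows the 150 bases before the start of Col1a2 (chr6:4505468-4505617, plus strand) and of Col3a1 (chr1:45311388-45311537, plus strand), fibrillar chains that rose together.
Col1a2: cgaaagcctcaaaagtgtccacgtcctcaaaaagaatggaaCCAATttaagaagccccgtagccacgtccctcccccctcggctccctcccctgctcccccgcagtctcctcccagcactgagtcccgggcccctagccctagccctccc
Col3a1: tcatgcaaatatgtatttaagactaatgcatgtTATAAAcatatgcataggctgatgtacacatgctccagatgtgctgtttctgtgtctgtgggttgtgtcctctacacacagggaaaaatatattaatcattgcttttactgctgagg
The second pair shows 30 bases at or between the starts of 2 type IV genes that begin in opposite directions. The stretch of Col4a1 and Col4a2 spans both starts, whereas that of Col4a3 and Col4a4 lies midway between the starts and holds neither. Col4a1 and Col4a2 have starts 21 bases apart (chr8:11312801-11312830, read along Col4a2), and Col4a3 and Col4a4 have starts 72 bases apart (chr1:82586871-82586900, read along Col4a4). The start of Col4a3, which has no window, is that of its gene record. The gene records of both pairs overlap (gaps of −85 and −114 bases).
Col4a1 and Col4a2: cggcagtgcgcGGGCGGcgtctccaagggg
Col4a3 and Col4a4: tggctgcacagggtggggggagtggccagc
A GC box lay in 22 of 36 collagen windows (61.1%) and in 35.7% of all 32851 windows. The 36 windows come from 33 genes, and those of Col4a1 and Col4a2 share bases, so that 1 GC box counts in both. Windows are therefore not independent, and the difference in shares was not tested. CCAAT boxes were in 36.1% of the collagen windows against 37.4% of all, and TATAAA stretches in 13.9% against 13.6%. The Col1a2 stretch holds a CCAAT box and the Col3a1 stretch a TATAAA. The stretch at the starts of Col4a1 and Col4a2 holds a GC box, and that between the starts of Col4a3 and Col4a4 none of these letters.

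The first comparison asked which collagens differed between the Western diet and the control diet. The Western diet raised 14 of the 42 collagen genes and lowered 2. Of all genes tested, 11.3% were called higher and 6.44% lower. The raised genes were the fibrillar chains Col1a1, Col1a2, Col3a1 and Col5a2, the basement membrane chains Col4a1 and Col4a2, all 3 abundantly detected type VI chains, Col12a1, Col14a1 and Col16a1 among the FACIT collagens, and Col8a1 and Col18a1. Both genes that fell, Col4a3 and Col4a4, encode basement membrane chains. Many collagen genes were dim in EAT, and 19 of the 42 had a mean signal above that of the median gene (6.46). All 14 raised genes were among these 19, where 17.0% of the bright genes in all were higher and 9.82% lower, and neither of the 2 that fell was. In 18 of the 19 the Western mean was above the control mean, against 51.4% of all bright genes. For no collagen did the 9 Western arrays lie entirely above the 9 control arrays, a separation that 0.951% of all genes showed. In whole tissue, more collagen-making cells and more RNA per cell cannot be told apart.

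**Figure D1:**
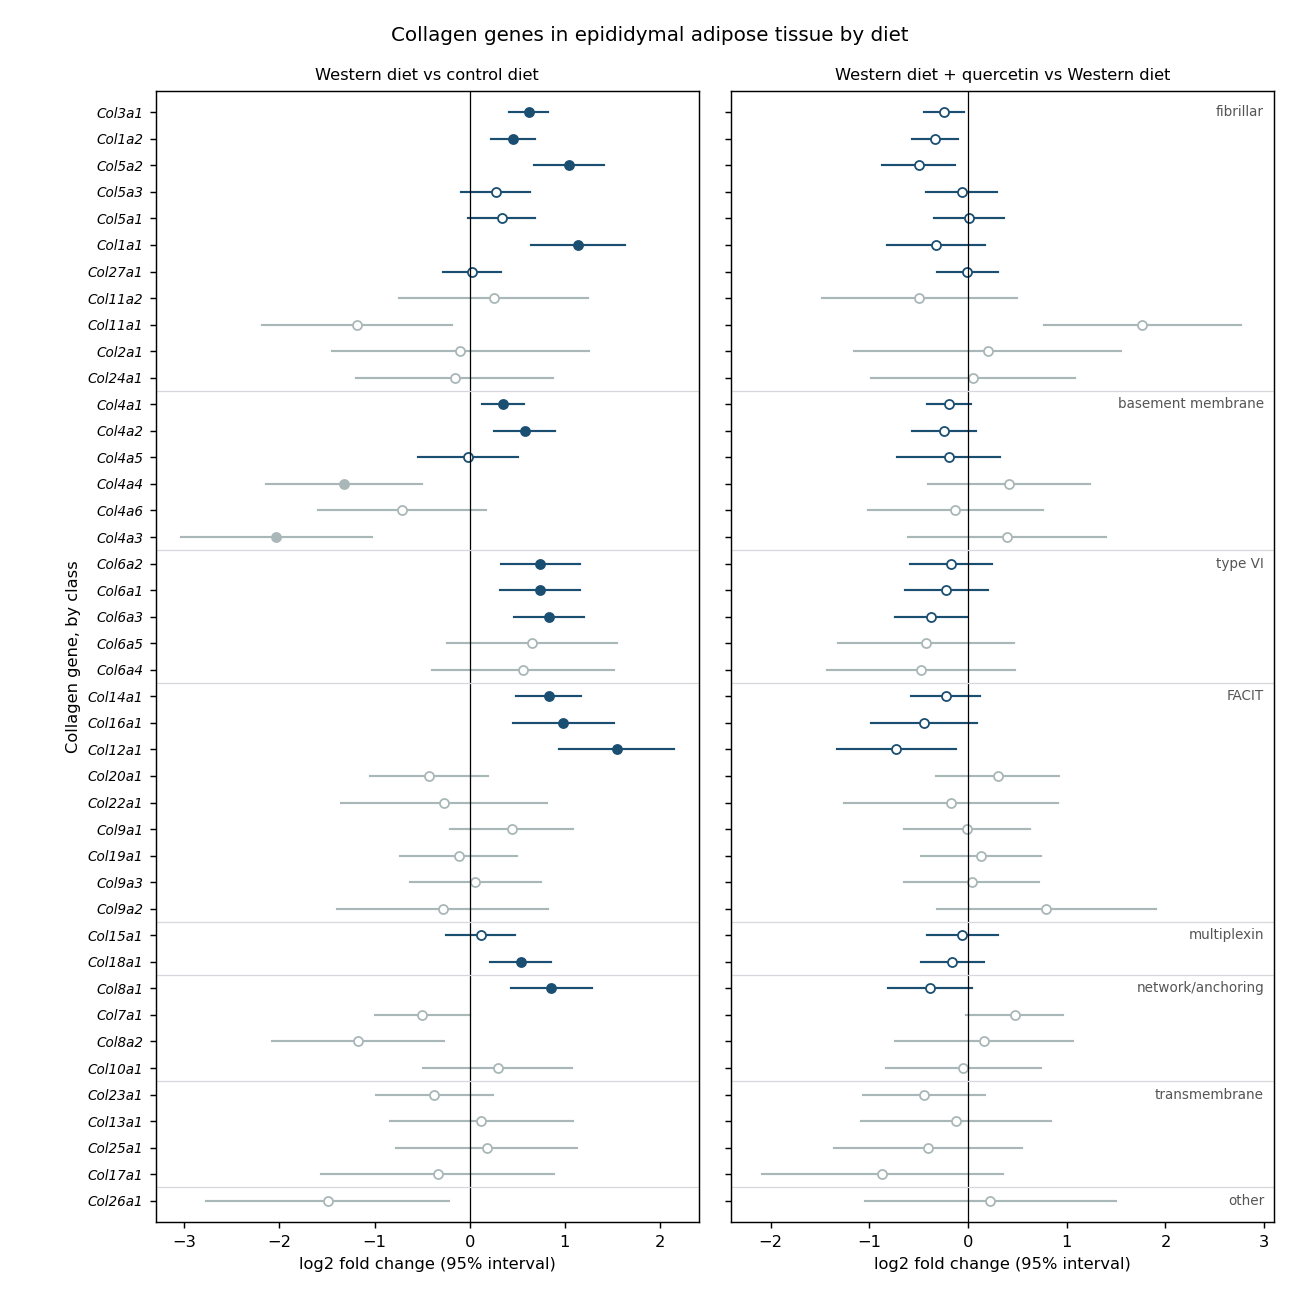
Log2 fold changes of the 42 collagen genes, grouped by class, for the Western diet against the control diet (left) and for added quercetin against the Western diet (right). Points are limma estimates with 95% intervals, filled where the adjusted p was under 0.05, and dark where the mean signal was above that of the median gene. The filled points on the left are 14 to the right of 0 and 2 to the left of it, and no point on the right is filled.

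Type I collagen, the main rope of connective tissue, is built from Col1a1 and Col1a2. Col1a1 signals had a lowest value of 7.03, a median of 8.11 and a highest value of 9.31 in control mice, against 8.89, 9.36 and 9.54 in Western mice. The ranges overlapped through control replicate 1, and 5 of 9 Western mice lay above all controls. Col1a1 was 2.19-fold higher in Western mice (log2 difference 1.13, SE 0.24, adjusted p = 0.00139). Col1a2 ran from 11.67 through a median of 11.91 to 12.50 in control mice and from 12.02 through 12.47 to 12.64 in Western mice. It rose by less, 1.37-fold (log2 difference 0.46, SE 0.11, adjusted p = 0.00513), and the call was lost without the 11 arrays high in other-tissue markers (0.23, adjusted p = 0.391) and with the actin ratio given further on as a covariate (0.37, adjusted p = 0.0832). Col3a1, the single chain of type III collagen, makes fine reticular fibres. Its control values were 11.85 at the lowest, 12.32 at the median and 12.79 at the highest, against 12.77, 13.01 and 13.21 in Western mice. All but 1 of the 9 Western mice exceeded every control (log2 difference 0.62, SE 0.10, adjusted p = 8.86e-05).

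Type V collagen nucleates the fibrils of type I, and is built from the chains Col5a1, Col5a2 and Col5a3. Col5a2 had a lowest, median and highest signal of 9.66, 10.38 and 11.23 in control mice and of 11.09, 11.60 and 11.70 in Western mice. It doubled in Western mice (2.06-fold, log2 difference 1.04, SE 0.18, adjusted p = 0.000193), with 7 of 9 Western mice above all controls. For Col5a1 the values were 9.18, 10.19 and 10.80 in control mice against 10.20, 10.44 and 10.72 in Western mice. No Western mouse exceeded the highest control, and the log2 difference of 0.34 (95% interval −0.02 to 0.69) was not called (adjusted p = 0.186). Col5a3 differed by 0.27 (95% interval −0.09 to 0.63, adjusted p = 0.311) and was not called either. The remaining fibrillar genes were Col27a1, which had a log2 difference of 0.03, and the dim Col2a1, Col11a1, Col11a2 and Col24a1, with log2 differences from −1.18 to 0.25, none of them called. Over the 11 fibrillar genes the median log2 difference was 0.27, against a median close to 0 over all genes (0.01 over the bright genes).

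**Figure D2:**
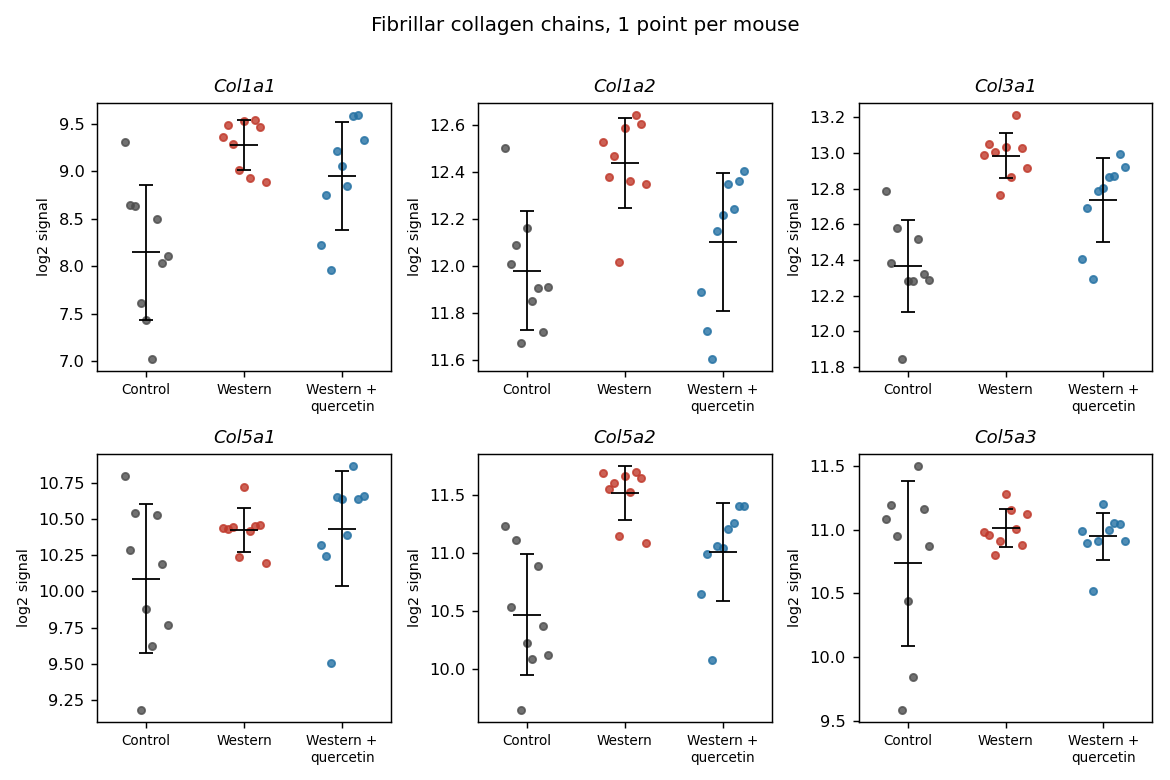
Log2 signal of 6 fibrillar collagen genes in each of 27 mice, 9 per diet, with the mean and SD of each diet. Western points of Col3a1 and Col5a2 lie mostly above the control points, whereas those of Col5a1 and Col5a3 lie within the control range.

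Because Col5a1 and Col5a2 pair in the same molecule, their signals were also compared within each array, as the log2 signal of Col5a2 minus that of Col5a1. This pair was singled out after its values were seen. Its level depends on the probes and only its change between diets can be read. The difference ran from 0.19 through a median of 0.36 to 0.57 in control mice, from 0.89 through 1.12 to 1.25 in Western mice, and from 0.32 through 0.57 to 0.81 with quercetin. All 9 Western mice therefore stood above all 9 control mice and above all 9 mice given quercetin. The Western mean exceeded the control mean by 0.71 (exact permutation test, two-sided, p = 4.11e-05, adjusted p = 0.000329 over 16 tests of 8 chain pairs), and the quercetin mean was lower than the Western mean by 0.51, from 1.09 ± 0.14 to 0.58 ± 0.19 (SD, n = 9, exact permutation p = 4.11e-05, adjusted p = 0.000329). That p is the smallest the 48620 arrangements can give. Col1a1 minus Col1a2, another of the 8 pairs, was also higher in Western than in control mice, by 0.68 (exact permutation p = 0.00136, adjusted p = 0.00434). Its groups overlapped. Of all 171 pairs among the 19 bright collagens, 3 (1.75%) separated Western from control without overlap and 1 (0.585%) separated quercetin from Western, and only Col5a1 with Col5a2 did both. Over the 6 combinations of the 2 Col5a2 and 3 Col5a1 probe sets the Western-minus-control change was 0.42 to 0.83 (exact permutation p from 4.11e-05 to 0.00156), without overlap in 3 of them. The quercetin-minus-Western change was −0.57 to −0.33 (exact permutation p from 4.11e-05 to 0.00905), without overlap in 2.

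A measure of RNA integrity moved with this difference. The log2 ratio of the 3′ to the 5′ control probe sets of beta-actin, which rises as RNA is degraded, had a median of 1.02 in control mice, 0.83 in Western mice and 1.12 with quercetin. Western arrays were lower than control arrays by 0.33 on average (exact permutation p = 0.00362, adjusted p = 0.00724 over 4 tests), and quercetin arrays were higher than Western arrays by 0.35 (exact permutation p = 0.000123, adjusted p = 0.000494). The GAPDH ratio differed by −0.19 (exact permutation p = 0.0548, adjusted p = 0.0548) and 0.24 (exact permutation p = 0.00699, adjusted p = 0.00932) in the same comparisons. Within diets the Col5a2-minus-Col5a1 difference was lower on arrays with a higher actin ratio (27 mice, deviations from diet means, Pearson r = −0.61, permutation p = 0.00042, adjusted p = 0.00084 over 2 ratios; Spearman rho = −0.65, permutation p = 0.00033, adjusted p = 0.00066). Without the 2 mice farthest from the median ratio, r was −0.61. The GAPDH ratio gave r = −0.39 (permutation p = 0.0459, adjusted p = 0.0459), rho = −0.32 (permutation p = 0.115, adjusted p = 0.115) and r = −0.27 without the 2 farthest mice. With the actin ratio as a term beside diet, the Western-minus-control change of the difference was 0.56 and the quercetin-minus-Western change −0.35. How far RNA integrity made the difference was not tested.

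**Figure D3:**
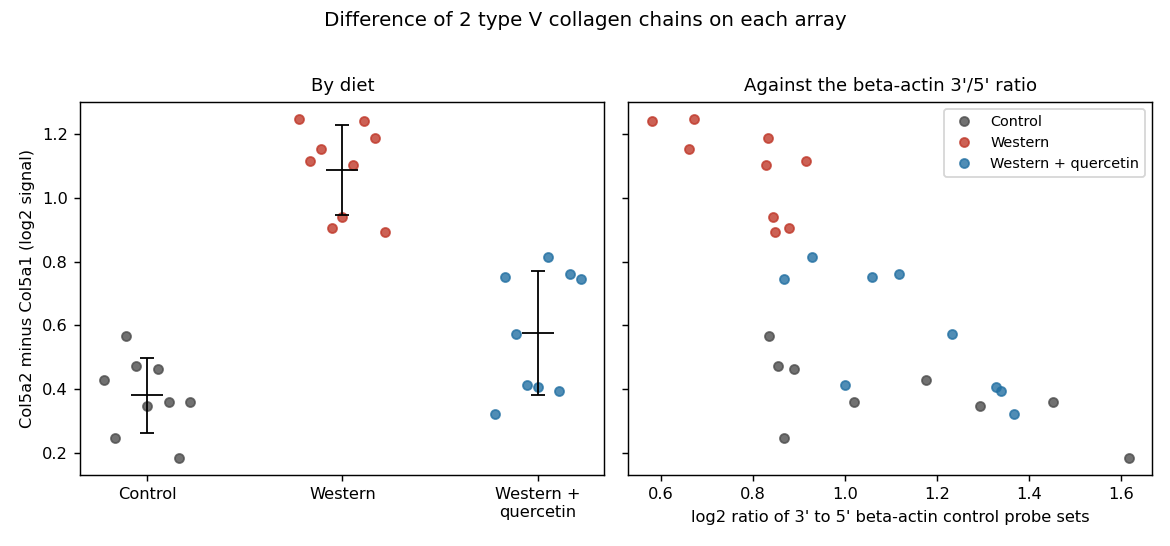
Log2 signal of Col5a2 minus that of Col5a1 on each array, by diet with mean and SD (left) and against the log2 ratio of the 3′ to the 5′ beta-actin control probe sets (right). The Western points lie between 0.89 and 1.25, above every control point (0.19 to 0.57) and every quercetin point (0.32 to 0.81).

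Type IV collagen is made from 6 chains, in 3 gene pairs that each begin head to head, and the pairs differed. Col4a1 and Col4a2, the chains of nearly all basement membranes, rose. Col4a1 ran from 11.97 through 12.36 to 12.89 in control mice and from 12.61 through 12.73 to 12.89 in Western mice, an increase of 1.28-fold (log2 difference 0.35, SE 0.11, adjusted p = 0.0245). The call was lost without control replicate 4 or control replicate 5, both among the 6 of 9 controls that lay below every Western mouse. Col4a2 ran from 10.54 through 11.56 to 12.14 in control mice and from 11.86 through 11.99 to 12.27 in Western mice (1.49-fold, log2 difference 0.58, SE 0.16, adjusted p = 0.0108). Its groups overlapped too, with 3 of 9 Western mice above all controls. Col4a3 and Col4a4, whose chains join in the basement membranes of kidney, lung and a few other tissues, were dim and fell. Col4a3 had 4.37, 5.38 and 6.15 as its lowest, median and highest signal in control mice and 1.51, 3.34 and 5.35 in Western mice. All but 1 of the 9 Western mice lay below every control, and the log2 signal fell by 2.03 (SE 0.49, adjusted p = 0.00421). For so dim a gene the size depended on the low values, and it was −0.35 with a floor of 32 (adjusted p = 0.0486) and −1.01 with a pseudocount of 16 (adjusted p = 0.0031). Col4a4 had 5.52, 6.84 and 8.28 in control mice and 4.56, 5.72 and 7.14 in Western mice, with a log2 difference of −1.32 (SE 0.40, adjusted p = 0.0211). In Col4a4 the groups overlapped more, with 4 of 9 Western mice below every control.

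These 2 falls held on the chosen probe set of each gene and not on the others. The second probe set of Col4a3 gave −0.41 (adjusted p = 0.535), and the others of Col4a4 gave −0.70 and −0.87 (adjusted p = 0.287 and 0.0685), all in the same direction. Both calls were lost with the actin ratio as a covariate (Col4a3 −1.83, adjusted p = 0.0554, and Col4a4 −0.72, adjusted p = 0.333). They were lost as well without the arrays high in liver markers (adjusted p = 0.221 and 0.175) and without those high in other-tissue markers (adjusted p = 0.0914 and 0.164). The pair Col4a5 and Col4a6 on the X chromosome was not called, with log2 differences of −0.02 (95% interval −0.54 to 0.51) and −0.71 (95% interval −1.60 to 0.17). Within each array, Col4a1 minus Col4a3 exceeded its control value by 2.38 in Western mice (exact permutation p = 0.000206, adjusted p = 0.0011) and Col4a2 minus Col4a4 by 1.90 (exact permutation p = 0.00074, adjusted p = 0.00296). Col4a5 minus Col4a6 changed by 0.70 and did not pass (exact permutation p = 0.0541, adjusted p = 0.0962). These pairs were chosen after their values were seen, so the direction of the first 2 differences is no separate result. The mean of 9 mesothelial markers, of the cell sheet that covers the fat pad, ran from 5.03 to 7.55 on control arrays, from 2.45 to 6.19 on Western arrays and from 3.14 to 6.12 with quercetin, with 1 marker called lower in Western mice and Krt19 at the lowest value on some arrays. Within diets, their level correlated with Col4a6 (27 mice, r = 0.58, permutation p = 0.00128, adjusted p = 0.00205; rho = 0.63, permutation p = 0.00086, adjusted p = 0.00138; r = 0.56 without the 2 farthest mice). It did not correlate detectably with Col4a3 (r = −0.04, permutation p = 0.844, adjusted p = 0.844; rho = −0.11, permutation p = 0.604, adjusted p = 0.604) or Col4a4 (r = 0.11, permutation p = 0.575, adjusted p = 0.657; rho = 0.15, permutation p = 0.474, adjusted p = 0.542). The part of mesothelium in these results was not tested.

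**Figure D4:**
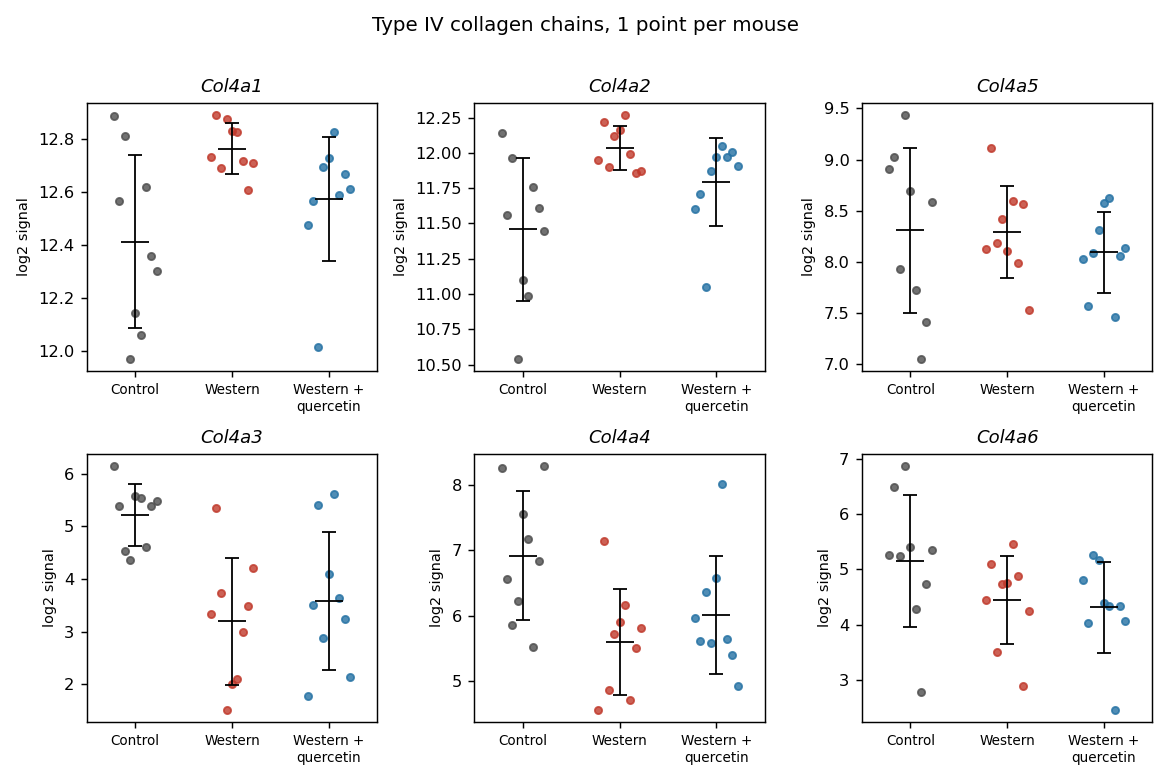
Log2 signal of the 6 type IV collagen genes in each of 27 mice, 9 per diet, with the mean and SD of each diet. Western points of Col4a1 and Col4a2 lie at the upper end of the control range, those of Col4a3 lie mostly below it, and those of Col4a5 lie within it.

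Type VI collagen, whose Col6a3 chain also releases a fragment that adipose tissue secretes, rose in its 3 main chains. Col6a1 and Col6a2, both on chromosome 10, were each 1.67-fold higher in Western mice (log2 difference 0.74, SE 0.20, adjusted p = 0.0122 and 0.0105). Col6a1 had 10.11, 10.95 and 11.70 as lowest, median and highest control signals and 11.21, 11.67 and 11.78 as Western signals. Col6a2 had 10.29, 11.12 and 11.92 against 11.51, 11.92 and 12.06. The Western mice were tightly grouped at the top of a wide control range in both. Col6a3 had 9.93, 10.65 and 11.46 in control mice and 11.17, 11.51 and 11.80 in Western mice, a log2 difference of 0.83 (SE 0.18, adjusted p = 0.00151), with 5 of 9 Western mice above all controls. The dim Col6a4 and Col6a5 gave 0.56 and 0.65 and were not called. All 3 calls were lost with the actin ratio as a covariate, where Col6a1, Col6a2 and Col6a3 gave 0.62, 0.56 and 0.58 (adjusted p = 0.115, 0.148 and 0.0698). Those of Col6a1 and Col6a2 were also lost by the test named in the study's methods (adjusted p = 0.0824 and 0.091), without liver-high arrays (adjusted p = 0.056 and 0.06) and without arrays high in other-tissue markers (adjusted p = 0.148 and 0.133). The median log2 difference of the 5 type VI genes was 0.74, beside 0.27 for fibrillar, 0.06 for FACIT and −0.36 for basement membrane collagens. Over members above the median gene alone these medians were 0.74, 0.46, 0.99 and 0.35, so that their order and the sign of the last depended on the dim genes.

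Among the FACIT collagens, which link fibrils to their surroundings, Col12a1 had the highest log2 difference on the chosen probe sets. Its control signals were 5.14, 7.21 and 7.84 at the lowest, median and highest and its Western signals 7.67, 8.42 and 8.63. All but 1 of the Western mice exceeded every control, and the difference was 2.92-fold (log2 difference 1.54, SE 0.29, adjusted p = 0.000483). Col14a1, also known as undulin, went from 7.49, 8.24 and 8.87 to 8.52, 9.09 and 9.58 (1.78-fold, log2 difference 0.83, adjusted p = 0.000953), and 6 of 9 Western mice were above all controls. Col16a1 went from 6.26, 7.28 and 8.28 to 8.07, 8.33 and 8.45 (1.98-fold, log2 difference 0.99, adjusted p = 0.00863). All but 1 of the control mice were below every Western mouse. The dim Col9a1, Col9a2, Col9a3, Col19a1, Col20a1 and Col22a1 had log2 differences from −0.43 to 0.44, none called.

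The multiplexins Col15a1 and Col18a1 are basement membrane collagens that carry sugar chains and whose ends are cut off as restin and endostatin. On the chosen probe sets only Col18a1 was called. Col18a1 had 8.18, 8.78 and 9.53 in control mice and 9.37, 9.43 and 9.66 in Western mice (log2 difference 0.53, SE 0.16, adjusted p = 0.017). Its other probe set gave 0.26 and was not called in a limma fit over all probe sets (adjusted p = 0.151). Col15a1 had a wider control range of 8.26, 9.63 and 10.02, and its Western values of 9.27, 9.50 and 9.73 lay inside it (log2 difference 0.12, 95% interval −0.25 to 0.48, adjusted p = 0.703). The within-array difference of Col18a1 and Col15a1, on the chosen probe sets, was higher in Western mice by 0.42 (exact permutation p = 0.0182, adjusted p = 0.0364). Col8a1, a short-chain collagen that forms networks below endothelium, had 6.41, 7.41 and 7.86 against 7.43, 8.36 and 8.73 (1.81-fold, log2 difference 0.86, SE 0.21, adjusted p = 0.00435). Its partner chain Col8a2 had a log2 difference of −1.18 (adjusted p = 0.0629) and was not called. The other genes were Col7a1, the anchoring fibril of skin, at −0.50, Col10a1 of growth plate cartilage at 0.29, the transmembrane collagens Col13a1, Col17a1, Col23a1 and Col25a1 at −0.37 to 0.18, and Col26a1 at −1.49, and none of these passed.

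Several genes had more than 1 probe set, 27 of the 42, and the probe set with the highest mean was used. The size of the change depended on that choice. Of Col3a1 the chosen probe set gave 0.62 and the dimmer one 1.23, of Col1a2 the chosen one gave 0.46 and the next 0.81, and of Col1a1 they gave 1.13 and 1.45, each called in the fit over all probe sets. Of Col12a1 the chosen one gave 1.54 and the others gave less, 0.77 (called), 0.95 and 0.04. When the probe sets of each gene were averaged, Col12a1 gave 0.83 and Col1a1 1.29. A dimmer Col5a1 probe set gave 0.62 and was called in that fit (adjusted p = 0.0247). In 10 genes the probe sets differed in sign, and in 0 of them did 2 probe sets pass the threshold in opposite directions.

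The second comparison asked whether quercetin changed collagens in mice fed the Western diet. It called 0 of the 42 genes higher and 0 lower with limma, where 0.253% and 0.0770% of all genes were called. At an unadjusted p under 0.05, 1 was higher and 5 were lower, against 7.31% and 6.41% of all genes. The 3 smallest p-values belonged to Col11a1, Col1a2 and Col5a2. Col1a2 had 11.61, 12.22 and 12.40 as lowest, median and highest signal with quercetin, against 12.02, 12.47 and 12.64 in Western mice. All 9 quercetin mice were below the Western median, and the log2 difference was −0.33 (95% interval −0.56 to −0.10, adjusted p = 0.156). Col5a2 had 10.08, 11.06 and 11.41 with quercetin and a log2 difference of −0.50 (95% interval −0.87 to −0.13, adjusted p = 0.186). In Col5a2, 5 of 9 quercetin mice were below every Western mouse. The test named in the study's methods, over the 3 diets and then between pairs of diets, called these 2 genes lower and Col11a1 higher, where it called 2.91% of all genes lower and 2.61% higher. Col11a1, a cartilage fibril chain, was dim, with 0.04, 0.76 and 3.40 in Western mice and 2.02, 3.24 and 3.67 with quercetin (log2 difference 1.76, SE 0.49, adjusted p = 0.094). Its control values of 0.33, 2.57 and 4.22 overlapped both groups, with 2 Western mice below every control.

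Other chains also had negative estimates. Col3a1 gave −0.25 (adjusted p = 0.238), Col12a1 −0.73 (adjusted p = 0.242) and Col6a3 −0.37 (adjusted p = 0.353), and in each of these 3 all 9 quercetin mice were below the Western median. The share of all genes with that pattern was not computed. The pattern, in these genes and in Col1a2, is therefore no result about collagens. Estimates for Col1a1, Col6a1, Col6a2, Col14a1, Col16a1, Col18a1, Col8a1, Col4a1 and Col4a2 lay between −0.45 and −0.16. In 18 of the 19 bright collagens the quercetin mean was below the Western mean, with a median of −0.23, whereas 44.4% of all bright genes were lower and their median was 0.02. These chains were read on the same arrays and are not independent of each other. With the actin ratio as a covariate the median was −0.14 and 4 of the 19 estimates were positive. Col5a1 was the exception among the 19, at 0.01 (95% interval −0.34 to 0.36). Within arrays, Col12a1 minus Col1a1 was lower with quercetin by 0.40 (from −0.97 ± 0.26 to −1.37 ± 0.29, SD, n = 9, exact permutation p = 0.00518, adjusted p = 0.0138), and Col6a3 minus Col6a1 by 0.15 (from −0.09 ± 0.07 to −0.24 ± 0.14, SD, n = 9, exact permutation p = 0.0117, adjusted p = 0.0268). The first of these 2 differences rested on the chosen probe sets. With quercetin, Col1a1 gave −0.33 on its chosen probe set and −0.64 on the other. Col12a1 gave −0.73 on its chosen probe set and −0.30, −0.11 and 0.19 on the others. Whether the first difference held on those probe sets was not tested, nor was either difference with the actin ratio as a term. Both pairs were chosen after values were seen. The pair Col1a1 and Col1a2 gave 0.01 (exact permutation p = 0.966). For the falling pair Col4a3 and Col4a4 the estimates were 0.39 and 0.41 (adjusted p = 0.809 and 0.731).

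Against the control diet, the quercetin group had 3 collagens higher, Col1a1 (log2 difference 0.81, adjusted p = 0.0417), Col3a1 (0.37, adjusted p = 0.0238) and Col14a1 (0.60, adjusted p = 0.0316), and Col4a3 lower (−1.64, adjusted p = 0.0419). Of all genes 5.00% were higher and 1.65% lower. The count rested on single mice. It was 10 without quercetin replicate 3, 6 and 7 without control replicates 1 and 3, 1 without control replicate 8 or 9 or quercetin replicate 4, and 0 without quercetin replicate 8 or 9. All genes called higher in these fits ran from 548 (without quercetin replicate 4) to 1409 (without control replicate 3), against 910 with all mice. These comparisons share arrays (the Western mice in the first 2 and the control mice in the first and last), so their estimates are not independent of each other.

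Collagens varied between mice of the same diet. The median SD of the 19 bright collagens was 0.52 in control mice, 0.18 in Western mice and 0.40 with quercetin, against 0.30, 0.16 and 0.18 for all bright genes. For 16 of the 19 the SD was largest in control mice. Control replicate 1 was the highest control in 15 of the 19 genes, whereas control replicates 4 and 6 were the lowest in 9 and 5. Quercetin replicate 3 was the lowest of its diet in 15. Chains of the same molecule, and some of different ones, rose and fell together from mouse to mouse within diets, in 9 pairs tested over the deviations of 27 mice from their diet means. The closest pairs were Col6a1 with Col6a2 (r = 0.98, rho = 0.95), Col4a1 with Col4a2 (r = 0.95, rho = 0.89), Col5a1 with Col5a2 (r = 0.93, rho = 0.86) and Col6a1 with Col6a3 (r = 0.90, rho = 0.93), each with adjusted permutation p = 2.25e-05 for r and 1.5e-05 for rho, where the unadjusted p of 1e-05 is the smallest that 100000 permutations can give. Weaker pairs were Col1a1 with Col3a1 (r = 0.82, rho = 0.88), Col3a1 with Col6a3 (r = 0.70, rho = 0.81), Col1a1 with Col1a2 (r = 0.69, rho = 0.67) and Col4a5 with Col4a6 (r = 0.67, rho = 0.61), with adjusted permutation p up to 0.00058 for r and 0.00216 for rho. Col1a1 with Col4a1, a fibril and a basement membrane chain, gave r = 0.77 and rho = 0.68 (adjusted permutation p = 9e-05 and 0.0011). Without the 2 mice farthest from the median of the first chain, r was 0.71 to 0.97 in 8 pairs and 0.48 in Col4a5 with Col4a6. Within single diets of 9 mice, r of Col1a1 with Col4a1 was 0.93 in control, −0.16 in Western and 0.69 in quercetin mice, and r of Col4a5 with Col4a6 was 0.90, 0.18 and 0.58. In the other 7 pairs r was positive in every diet, from 0.53 to 0.98. All points share array-wide properties such as RNA integrity and tissue composition, and genes without any link were not compared.

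**Figure D5:**
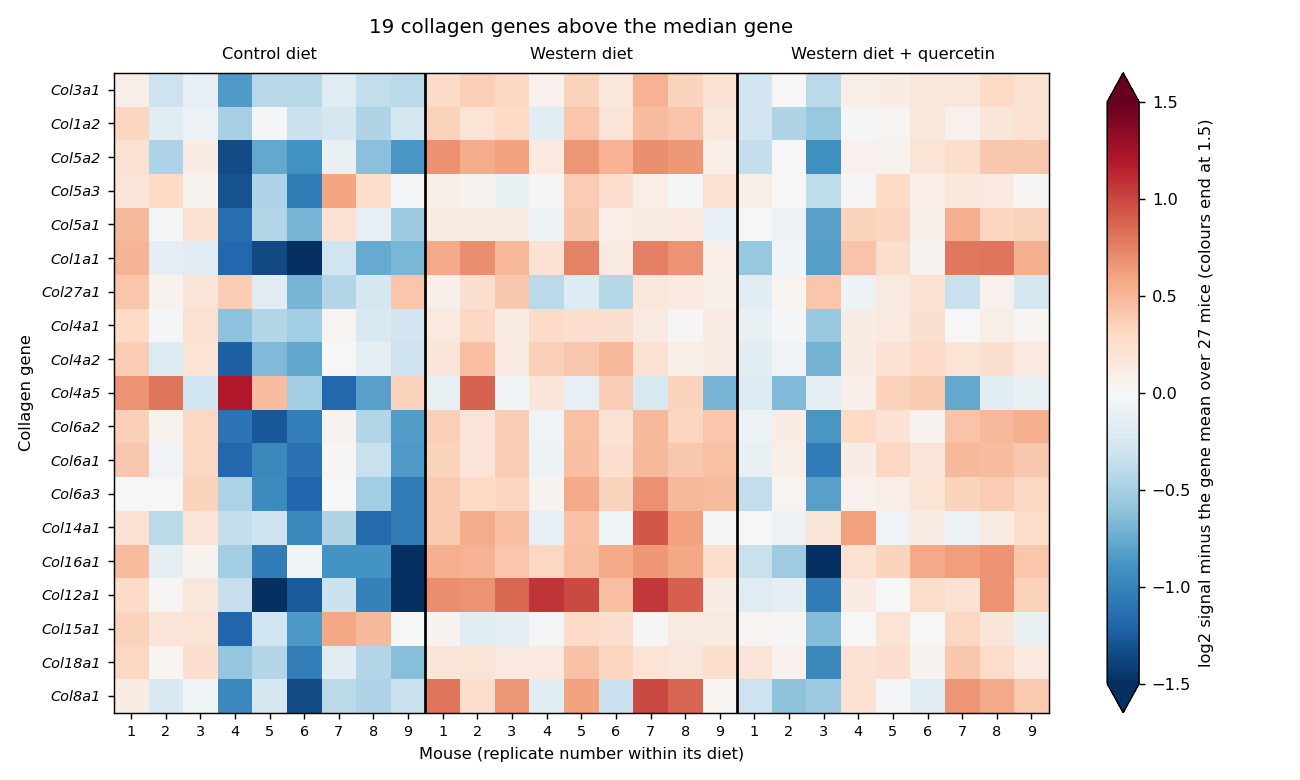
Log2 signal of the 19 collagen genes above the median gene in each of 27 mice, as the deviation from the mean of the gene over all mice (red higher, blue lower). The control mice range from blue (replicates 4, 5 and 6) to red (replicate 1), the Western mice are mostly red, and quercetin replicate 3 is blue in most genes.

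Collagens need enzymes and partners, and 75 of 81 such genes were measured. On the Western diet 32 were called higher and 3 lower, beside the 11.3% and 6.44% of all genes. Of 12 genes that trim and crosslink collagen 6 rose and 0 fell. These were led by Pcolce2, an enhancer of procollagen C-proteinase (from 9.02 ± 0.96 to 10.97 ± 0.19, SD, n = 9, adjusted p = 6.6e-05), Lox, the oxidase that starts crosslinks (from 8.72 ± 0.46 to 9.95 ± 0.34, adjusted p = 6.9e-05), Pcolce (log2 difference 0.86, adjusted p = 0.000173) and Bmp1, that proteinase itself (0.50, adjusted p = 0.00564). Of 18 genes of folding and modification 8 rose and P3h4 fell by 0.39 on the log2 scale (adjusted p = 0.0432). The leading ones were the prolyl 3-hydroxylases P3h1 (0.66) and P3h3 (0.44), the lysyl hydroxylase Plod1 (0.41) and P4hb (0.26), a subunit of prolyl 4-hydroxylase, with adjusted p of 0.00266, 0.00627, 0.00732 and 0.0117. Of 17 proteins that sit on fibrils 10 rose and 1 fell. Fibronectin (Fn1) rose by 1.08, the proteoglycans Bgn and Lum by 0.69 and 1.41, and tenascin X (Tnxb) by 0.63 (adjusted p = 6.01e-05, 6.27e-05, 0.00011 and 0.00249), and the proteoglycan Fmod fell by 1.39 (adjusted p = 0.0226).

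Of 15 basement membrane partners 3 rose and 1 fell, namely the laminin chains Lama2 (0.80, adjusted p = 0.000221), Lamb3 (0.78, adjusted p = 0.0204) and Lamc1 (0.38, adjusted p = 0.0211), and the dim Lama1, which fell by 2.86 (adjusted p = 0.00549). Of 13 receptors and uptake genes 5 rose and 0 fell, led by the endocytic receptors Mrc1 (0.84, adjusted p = 5.42e-05) and Mrc2 (1.93, adjusted p = 0.00173), the inhibitory collagen receptor Lair1 of leukocytes (1.63, adjusted p = 0.00182) and the receptor kinase Ddr2 (0.39, adjusted p = 0.00282). The median log2 difference was 0.51 for trimming and crosslinking, 0.39 for receptors, 0.27 for fibril-associated proteins, 0.25 for folding and −0.06 for basement membrane partners. With quercetin 0 of the 75 were called in either direction by limma, where array weights and the test of the study's methods called 9 and 8 lower, beside 3.38% and 2.91% of all genes. The lowest adjusted p was 0.0691, for P4hb (−0.28).

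Some markers of other cells moved with these genes. Of 12 macrophage markers, 1 of which (Mrc1) is also counted among the receptors above, 11 were higher in Western mice. Their mean ran from 8.18 to 9.67 on control arrays, from 9.57 to 10.83 on Western arrays and from 8.57 to 10.42 with quercetin. Of 10 fibroblast and adipose progenitor markers 5 were higher, Mfap5, Dclk1, Fap, Cd248 and Pdgfra. Pdgfrb, Cd34 and Thy1 gave log2 differences of 0.36, 0.32 and 0.44, and Dpp4 and Pi16 −0.12 and −0.19, none of them called. Both counts stand beside 11.3% of all genes called higher and 17.0% of the bright genes. The mean of the 10 ran from 7.78 to 8.74 on control arrays, 8.43 to 9.03 on Western arrays and 8.29 to 8.87 with quercetin. None of these markers was at the lowest value on any array. Within diets, Col3a1 followed the macrophage mean (27 mice, r = 0.73, permutation p = 1e-05, adjusted p = 8e-05 over 8 relations; rho = 0.77, permutation p = 2e-05, adjusted p = 0.00016; r = 0.80 without the 2 farthest mice). It also followed the fibroblast mean (r = 0.66, permutation p = 0.00039, adjusted p = 0.00104; rho = 0.72, permutation p = 0.00016, adjusted p = 0.00032; r = 0.77 without those mice). Col1a1 gave 0.67 and 0.69 with the same lists (adjusted permutation p = 0.00088 and 0.00104), with rho of 0.72 and 0.73 (adjusted permutation p = 0.00032 each) and r of 0.79 and 0.75 without the 2 farthest mice. Col4a1 and the mean of 10 endothelial markers gave r = 0.56 (permutation p = 0.004, adjusted p = 0.00533) and rho = 0.45 (permutation p = 0.0191, adjusted p = 0.0255), with r = 0.52 without the 2 farthest mice. The endothelial mean ran from 8.56 to 9.61 on control arrays, from 8.89 to 9.58 on Western arrays and from 9.14 to 9.57 with quercetin. Of these markers 0 were called higher and 1 lower in Western mice. The part of these cells in the collagen signals was not tested.

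The comparison of Western with control mice was refitted without arrays high in markers of other tissues and with RNA integrity as a term. Without the 11 arrays high in testis, lymph node or smooth muscle markers, which left 3 control, 7 Western and 6 quercetin mice, control replicates 1 and 5 among them, 5 collagens were higher in Western mice, Col3a1, Col5a2, Col6a3, Col12a1 and Col16a1, beside 969 of all genes (5.33%). Without the 9 arrays high in liver markers 9 were higher, beside 1131 of all genes (6.22%), and 0 were lower in either case. With the actin ratio as a covariate 6 were higher, Col1a1, Col3a1, Col4a2, Col5a2, Col8a1 and Col12a1, and 0 lower, beside 1130 of all genes higher (6.21%), compared with 2047 without it. Of the raised genes not yet named in this respect, Col4a1 lost its call under 6 of the 16 alternatives, Col18a1 under 5, Col4a2 and Col14a1 under 3, Col8a1 under 2 and Col16a1 under 1 (the actin ratio). Col3a1, Col5a2 and Col12a1 were called higher under every one of the 16 alternatives tried and without each of the 27 mice in turn. Their log2 differences over the 16 alternatives ran from 0.44 to 0.93, from 0.70 to 1.18 and from 0.83 to 1.89.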

How the data were processed

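EAT mRNA of 27 mice was read on 27 Affymetrix arrays. The authors scanned the arrays with GCOS, computed signals with MAS5 and deposited 1 linear intensity per probe set and array, not scaled between arrays (array medians 25.1 to 54.3). Intensity near background is noisy, so the number of arrays and the brightness of a probe set limit precision. From the deposited intensities, 64 control probe sets were removed, the rest were quantile normalized, values under 1 were set to 1, and log2 was taken. GEO's platform annotation names 1 gene for 34945 probe sets, several for 932 and none for 9160. The single-gene probe set with the highest mean over 27 arrays stood for each of 18193 genes. Diets were compared with limma 3.58.1 (R 4.3.3, trend, 1 mean per diet) and the Benjamini-Hochberg method across the 18193 genes, with calls at an adjusted p under 0.05. Pairs of chains were tested by 100000 permutations within diets and by exact permutation of 9 against 9 mice. Scripts were tested on simulated data. Figures were drawn with matplotlib 3.10.9 (Python 3.11.15).

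The members and lists were chosen with earlier results of these data known. A fixed list of 21 collagens was to be named, with any other past the threshold, the 3 with the smallest p for quercetin, and up to 4 called genes of each partner group with the smallest p. Collagens outside that rule, the 8 chain pairs compared within arrays, the actin ratio and the marker relations were chosen after values were seen. Alternatives changed the normalization, floor, pseudocount, filter, probe set rule, test, replicate block and arrays used. No array was identical to another.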

Additional observations from a re-analysis of the deposited data

Results flagged for a closer look

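Of 126 groups of 9 mice (42 collagens in 3 diets), 25 (19.8%) held a mouse whose gap to its nearest neighbour was too large for its diet by Dixon's test. The nominal rate of about 5% holds for independent, normally distributed values. Collagens varied together and many were dim, and the rate over all genes was not computed. The share of flagged groups is therefore no result about collagens. Quercetin replicate 3 accounted for 10 of them, each time as the lowest of its diet, at log2 signals of 12.01 (Col4a1), 11.05 (Col4a2), 10.69 (Col6a2), 10.23 (Col6a1), 10.52 (Col5a3), 9.50 (Col5a1), 8.79 (Col15a1), 8.26 (Col18a1), 6.51 (Col12a1) and 6.07 (Col16a1). Without that mouse 10 collagens, in place of 3, were higher in the quercetin group than in controls, as were 1204 of all genes in place of 910.

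The other bright genes were Col1a2, lowest on Western replicate 4 (12.02), and Col5a1, highest on Western replicate 5 (10.72). Control replicate 6, the array with high testis markers, was the highest control for Col22a1 (8.69) and Col20a1 (7.49), and quercetin replicate 5 was the highest for Col22a1 (7.26). The remaining ones were dim. Western replicate 1 (3.13) and quercetin replicate 6 (2.47) were highest for Col10a1. Control replicate 5 (0.855) and quercetin replicate 7 (0.882) were lowest for Col13a1, Western replicate 2 (1.54) for Col19a1, quercetin replicate 7 (2.47) for Col4a6 and control replicate 8 (2.06) for Col9a1. Control replicate 5 was at the lowest possible value for Col6a4 (0), and control replicate 7 (0.81) and quercetin replicate 1 (2.15) were lowest for Col6a5.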

How the results depend on the processing

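No called fold change of a named collagen changed sign under 16 alternatives, of which the left-out control, liver-marker and actin ratio settings and the unadjusted test were added after seeing the data. The main counts higher and lower were 14 and 2 (Western against control), 0 and 0 (quercetin against Western) and 3 and 1 (quercetin against control), with partner genes at 32 and 3 and at 0 and 0. Western against control, 9 higher and 1 lower collagens were called by the test of the study's methods, 9 and 0 without arrays high in liver markers, 5 and 0 without arrays high in other-tissue markers, 6 and 0 with the actin ratio as a covariate, and 0 lower among genes above the median. Over all genes these settings called 1346 higher and 650 lower, 1131 and 441, 969 and 769, 1130 and 408, and 1112 lower. The main fit called 2047 and 1172. Quercetin against Western, array weights and the test of the study's methods, with or without adjustment, each called 1 higher and 2 lower, the fit of only these diets 1 and 1, and leaving out 4 control arrays 1 higher. Over all genes these called 766 and 615, 474 and 530 (732 and 676 without adjustment), 486 and 286, and 402 higher. The main fit called 46 and 14. Quercetin against control, the higher count was 1 without normalization, 5 and 6 by the test of the study's methods with and without adjustment, and 0 after a median shift, with only 2 diets, and without liver-high or other-tissue arrays. The lower count was 0 in the latter 4 settings, without normalization, with a floor of 32, above the median, without a trend and without 4 control arrays. Over all genes the higher counts were, in the order given, 268, 973, 1639, 371, 348, 174 and 219, against 910 in the main fit. The lower counts were 130, 89, 26 and 164 in those 4 settings, then 38, 249, 333, 232 and 808, against 301. Partner genes higher in Western mice were 21 without normalization, 17 and 9 without liver-high and other-tissue arrays and 14 with the actin ratio, and lower ones 7 with array weights, 1 by the test of the study's methods, 0 without liver-high arrays and 1 with the actin ratio. All genes higher numbered 1108, 1131, 969 and 1130 in these settings, and lower ones 1943, 650, 441 and 408. Partner genes lower with quercetin were 3 above the median, 9 with array weights, 8 by the test of the study's methods with or without adjustment, 9 with only 2 diets and 5 without 4 control arrays. All genes lower with quercetin numbered 65, 615, 530 (676 without adjustment), 286 and 231 in these settings, against 14 in the main fit. Estimates that were not called did change sign, in Western against control mice Col4a5 (−0.12 to 0.21), Col15a1 (−0.17 to 0.32) and Col5a3 (−0.02 to 0.45), and for quercetin against Western Col4a3 (−0.39 to 0.62), Col4a4 (−0.23 to 0.51), Col4a6, Col5a1, Col6a2, Col14a1 and Col15a1. Of the 19 bright collagens, 17 to 19 were higher in Western mice and 0 to 4 higher with quercetin. The cause of these moves was not tested, beyond the fewer mice or genes that some settings hold.

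Leaving out each mouse in turn, collagens higher in Western mice numbered 13 to 14 and lower ones 2 to 4 (4 without Western replicate 2). Quercetin against control gave 0 to 10 higher and 0 to 2 lower, and quercetin against Western 0 to 0. Partner genes were 27 to 33 higher and 1 (without Western replicate 3) to 6 (without control replicate 6) lower in Western mice, and 0 to 2 lower with quercetin. All genes lower in Western mice numbered 1052 without Western replicate 2, 930 without Western replicate 3 and 1880 without control replicate 6.

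Replicate numbers are shared between diets but name no common animal. With the replicate block, 13 collagens were higher and 2 lower in Western mice, 0 and 0 changed with quercetin, and 2 and 1 differed from control, while partner genes gave 31 and 2, and 0 and 0. Col4a3, the collagen lower in the quercetin group than in controls in the main fit, lost that call with the block. It was therefore not the 1 lower collagen. Same-numbered mice did not deviate together (27 pairs, r from −0.33 to 0.18, 4 of them over 0.1). Collagens below the median gene are read near background, where a change could be missed.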
